A study of Mus musculus with 71 samples.

Results

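RING1B ChIP-seq of day-8 neural progenitor cells (NPC) was compared between cells with wild-type CBX7 (WT) and cells with CBX7-CaPS. The comparison used 4 of the 71 samples of the series, WT and CaPS of experiment 3 and WT and CaPS of experiment 4, taken by the group number in the sample titles, and all 5393 RING1B peaks of the day-8 table. All libraries came from mouse J1 embryonic stem cells (ESC), which were freed of feeder cells, grown as aggregates without LIF for 4 days and then given 5 uM retinoic acid until collection on day 8, per the labels. WT and CaPS cells received the same treatment, and the labels give no other allele. They do not say how many clones the CaPS cells represent, how CBX7-CaPS is expressed, or whether the libraries of 1 group are separate cultures, so p-values reflect spread that could be technical. No RNA was measured here, so the labelled cell type was not checked against expressed markers.

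RING1B is the ubiquitin ligase of Polycomb repressive complex 1 (PRC1), which places ubiquitin on histone H2A and keeps developmental genes silent. In canonical PRC1 a CBX protein reads the H3K27me3 mark made by PRC2, and CBX7 is the main such subunit of ESC. CBX2, common in committed cells, carries a region for compaction and phase separation, abbreviated CaPS, and the title of the series speaks of a domain of committed cells introduced into PRC1 of pluripotent cells. During neural differentiation PRC1 usually leaves neural genes that are switched on and stays on genes of other lineages.

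The promoters of 6 genes whose peaks are described below show the kind of DNA that lay under them, 3 from peaks with more RING1B in CaPS (Sox2, Pou3f2, Eya4) and 3 from peaks with less (Hlx, Tbx20, Hand2). Each sequence holds the 250 bases before the transcription start, 5′ to 3′ on the gene's strand, from RefSeq (GRCm38.p6, the same coordinates as mm10), and capitals mark the CG dinucleotides.
Sox2 (chr3:34649745-34649994, plus strand): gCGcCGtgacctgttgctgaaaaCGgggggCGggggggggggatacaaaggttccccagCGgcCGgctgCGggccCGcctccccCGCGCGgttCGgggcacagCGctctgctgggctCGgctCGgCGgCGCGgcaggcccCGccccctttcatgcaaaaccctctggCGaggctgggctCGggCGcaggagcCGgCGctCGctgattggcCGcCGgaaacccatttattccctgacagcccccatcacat
Pou3f2 (chr4:22488367-22488616, minus strand): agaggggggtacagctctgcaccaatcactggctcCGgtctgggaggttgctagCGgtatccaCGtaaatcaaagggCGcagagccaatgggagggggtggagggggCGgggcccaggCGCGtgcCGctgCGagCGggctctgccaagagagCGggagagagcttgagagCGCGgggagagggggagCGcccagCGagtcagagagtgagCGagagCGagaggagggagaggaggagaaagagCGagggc
Eya4 (chr10:23349891-23350140, minus strand): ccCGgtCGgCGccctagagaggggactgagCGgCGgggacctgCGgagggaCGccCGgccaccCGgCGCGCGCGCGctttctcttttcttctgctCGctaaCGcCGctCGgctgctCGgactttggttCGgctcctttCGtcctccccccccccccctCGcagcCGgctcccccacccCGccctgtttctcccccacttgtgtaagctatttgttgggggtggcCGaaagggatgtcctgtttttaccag
Hlx (chr1:184732494-184732743, minus strand): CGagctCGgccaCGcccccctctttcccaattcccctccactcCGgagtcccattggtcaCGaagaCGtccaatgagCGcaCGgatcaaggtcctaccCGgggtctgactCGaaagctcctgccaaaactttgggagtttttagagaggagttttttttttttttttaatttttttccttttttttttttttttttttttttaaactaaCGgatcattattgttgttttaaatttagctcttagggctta
Tbx20 (chr9:24774304-24774553, minus strand): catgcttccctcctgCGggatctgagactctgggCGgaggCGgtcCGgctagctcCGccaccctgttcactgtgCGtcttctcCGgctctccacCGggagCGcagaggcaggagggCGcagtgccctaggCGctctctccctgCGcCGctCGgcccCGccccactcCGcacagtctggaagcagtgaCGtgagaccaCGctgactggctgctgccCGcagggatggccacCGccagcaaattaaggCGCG
Hand2 (chr8:57320733-57320982, plus strand): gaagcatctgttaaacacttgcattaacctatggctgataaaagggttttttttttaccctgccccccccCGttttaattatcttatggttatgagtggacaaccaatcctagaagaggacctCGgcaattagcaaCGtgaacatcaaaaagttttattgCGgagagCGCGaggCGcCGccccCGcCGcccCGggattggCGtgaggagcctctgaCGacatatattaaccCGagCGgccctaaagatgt
CG, a motif that reads the same on both strands, occurred 27 times before Sox2, 18 times before Pou3f2 and 25 times before Eya4. It occurred 11 times before Hlx, 22 times before Tbx20 and 15 times before Hand2, so the counts of both sets overlap. The median of 32851 single promoters in the table was 6. Over the 3969 RING1B peaks whose gene had a sequence there it was 18. For peaks called lower and higher at equal peak sums, as described below, it was 13 and 20. The 6 and the 18 are unlike measures, since a gene counts in the 18 for each of its peaks. The choice of promoter for a gene with several also bears on the 18, so no excess of CG at peaks is read from them. The counts of the 6 promoters lay on both sides of that median of 18 or at it. At least as many as before Sox2 were found in 8.56% of the 32851 promoters, and at least as many as before Hlx in 35.6%.

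The 4 libraries differed in depth and in how much of it lay in peaks. WT held 10.3 M tags in experiment 3 and 5.23 M in experiment 4, and CaPS held 25.3 M and 9.52 M. Of all tags, the part in peaks was 2.57% in WT and 3.39% in CaPS of experiment 3, and 5.10% in WT and 3.20% in CaPS of experiment 4, so CaPS was above WT in one experiment and below it in the other. Values are tags in the peak scaled by the authors to 10 M tags per library. A count of 3 tags, the most that a 0 allows, equals 2.90 and 5.74 tags per 10 M in WT of experiments 3 and 4, and 1.18 and 3.15 in CaPS, for counting error only. The WT library of experiment 4 stands apart with the highest share in peaks, and results with and without it are given.

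On the authors' scale no peak differed between CaPS and WT beyond the spread of the 2 pairs. Across all 5393 peaks the median log2 ratio, on the log2(value + 1) scale, was 0.15 in experiment 3 (1.11-fold) and -0.88 in experiment 4 (0.544-fold). CaPS was lower at 42.1% of peaks in experiment 3 and at 78.3% in experiment 4. In both experiments 2071 peaks were lower (38.4%) and 968 were higher (17.9%). With the experiment number as a block, limma called 0 peaks lower (0% of 5393) and 0 higher (0%) at a Benjamini-Hochberg adjusted p under 0.05, against 403 and 129 at an unadjusted p under 0.05, and edgeR's quasi-likelihood test on recovered tags with the library totals also called 0 in each direction. The lowest adjusted p of limma was 0.352. The median ratio over both pairs was -0.37, and it was 0.22 without the WT library of experiment 4 and -1.002 without that of experiment 3. With 2 libraries a group an exact permutation test of a single peak cannot go below a two-sided p of 0.333, so it could call none.

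The pairs thus disagreed in overall level, and the relative standing of peaks was examined by giving each library the same sum over the peaks, a step taken after the authors' scale had given no call. Relative to that sum, peaks lower in CaPS included those of Gata4, Hand2, Hlx and several T-box genes, and peaks higher in CaPS included those of Sox2, Pou3f2, Zic2 and Pax6. The median log2 ratio at equal peak sums was -0.23 (-0.22 in experiment 3 and -0.25 in experiment 4), so 0, against which peaks were tested, is not the middle of the peaks. At equal peak sums limma with the block called 243 peaks lower (4.51%) and 192 higher (3.56%). Of these, 240 lower and 179 higher calls had the same direction in both pairs on the authors' scale too. In bulk chromatin, fewer cells with RING1B at a peak and less RING1B per cell cannot be told apart. These calls rest on the block: 0 peaks were called in either direction without it. The calls also changed with the library left out. Such a fit has no block and a lone library in a group, so it cannot tell how many of these calls hold. Other scalings moved the balance, with 134 lower and 247 higher by edgeR with TMM factors and 21 and 142 by DESeq2, both with the block, and 294 and 129 of their calls were among the 435. Of the 435 calls 220 had a mean under 20 tags per 10 M, where single tags weigh heavily, and 95 lower and 120 higher calls were at stronger peaks.

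**Figure D1:**
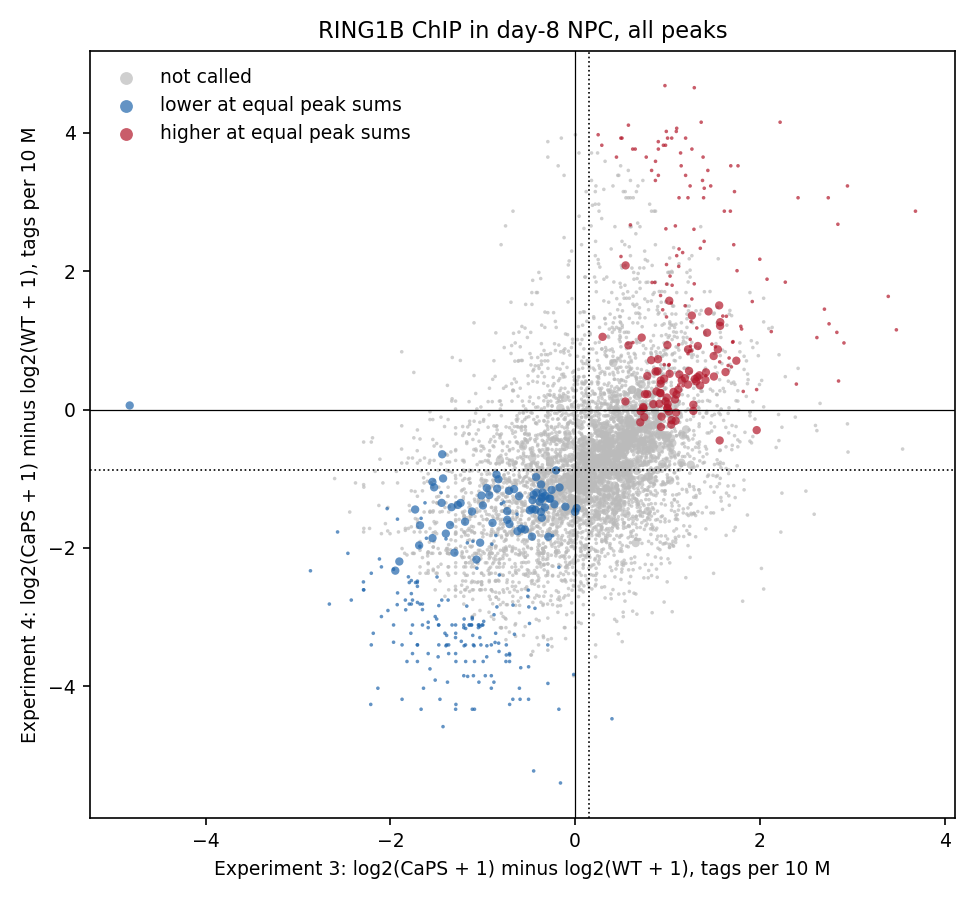
Log2 ratio of CaPS over WT on the log2(tags per 10 M + 1) scale in experiment 3 (horizontal axis) and experiment 4 (vertical axis), 1 point per peak, large where the mean was 100 tags per 10 M or more; blue and red mark the 243 and 192 peaks called lower and higher at equal peak sums. Dotted lines are the medians, 0.15 and -0.88. Most red points lie in the upper right, 179 of 192 above 0 in both experiments. Most blue points lie in the lower left, 240 of 243 below 0 in both. The blue point at the far left is the peak of Cbx2.

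The agreement of the pairs varied with the strength of the peak, with no steady order. Across peaks the log2 ratios of experiments 3 and 4 correlated at r = 0.50 for the 3424 peaks with a mean under 20 tags per 10 M, at 0.37 for the 1485 peaks with a mean of 20 to 100 tags per 10 M, at 0.65 for the 410 peaks of 100 to 1000 and at 0.81 for the 74 stronger ones. These are descriptions across peaks that share 4 libraries, and peaks are not independent replicates.

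The peaks with the largest falls of RING1B in CaPS belonged to genes of several tissues, heart, gut, limb and nervous system among them. The named peaks are the 10 largest changes in each direction among peaks called at equal peak sums with a mean of at least 100 tags per 10 M and the same direction in both pairs, chosen after their values were seen. Gata4, a transcription factor of heart and endoderm, had 691 and 1295 tags per 10 M in WT of experiments 3 and 4 (993 ± 427, SD, n = 2) and 179 and 257 in CaPS (218 ± 55.6, SD, n = 2) at chr14:63240572-63253499 (mm10). Both CaPS values lay below both WT values, by 3.85-fold and 5.02-fold within the pairs. At equal peak sums the log2 ratio was -2.001 (SE 0.18, adjusted p = 8.56e-24 by limma), while on the authors' scale it was -2.14 with an adjusted p of 0.459. In these fits the variance of a peak was the trend over all peaks at its strength, not that of its own 4 values, so such small p-values describe this peak against that trend. The groups did not overlap in this direction at 26.8% of all peaks, so the separation of 4 values alone is common.

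A similar fall was called at chr18:11047820-11059420, annotated to 1010001N08Rik and lying over Gata6, a relative of Gata4, where WT had 679 and 1266 and CaPS 181 and 276 tags per 10 M. The log2 ratio at equal peak sums was -1.91 (SE 0.18). The widest peak of this set, 38426 bases at chr8:57308949-57347374, was annotated to 5033428I22Rik and covers Hand2, a bHLH factor of heart and limb. It held 1889 and 3312 tags per 10 M in WT and 589 and 1039 in CaPS, with a log2 ratio of -1.54 at equal peak sums (SE 0.14). At both peaks the CaPS libraries were the lower of each pair and the groups did not overlap.

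Hlx, a homeobox gene of gut mesenchyme and liver growth, had 650 and 1921 tags per 10 M in WT and 309 and 427 in CaPS, with log2 ratios of -1.07 and -2.17 in the pairs, and the promoter shown above lies inside this peak. The T-box genes of heart and limb gave 2 of the named peaks. Tbx5 had 164 and 259 in WT and 63.7 and 80.9 in CaPS. A peak at the 3' end of Tbx3, annotated to its antisense RNA Tbx3os2, had 297 and 670 in WT and 101 and 184 in CaPS. Tbx20, a cardiac T-box gene whose promoter is also shown, went from 531 and 936 in WT to 220 and 360 in CaPS with a log2 ratio of -1.19 at equal peak sums (SE 0.18).

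The remaining 4 of these 10 peaks lay at Nfia, Slc6a5 and Gm15825. Nfia, a factor of glial development, gave 2 neighbouring peaks, with 108 and 235 tags per 10 M in WT against 40.5 and 67.2 in CaPS at the first, and 132 and 190 against 39.1 and 69.3 at the second. Slc6a5, the neuronal glycine transporter, had 164 and 496 in WT and 65.7 and 118 in CaPS. A promoter peak of the non-coding gene Gm15825, which overlaps Tfap2d, had 231 and 527 in WT and 71.0 and 134 in CaPS. In each of these 4 peaks both CaPS values lay below both WT values.

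The peaks with the largest rises of RING1B in CaPS were of mixed kinds, among them factors of neural progenitors, a sensory and a blood gene and non-coding genes. Sox2, the factor that holds cells in the neural progenitor and pluripotent states, had 910 and 595 tags per 10 M in WT of experiments 3 and 4 (752 ± 223, SD, n = 2) and 2475 and 1592 in CaPS (2034 ± 625, SD, n = 2) at chr3:34639482-34658005 (mm10). CaPS was higher by 2.72-fold and 2.67-fold within the pairs, and the groups did not overlap. At equal peak sums the log2 ratio was 1.57 (SE 0.15, adjusted p = 3.09e-23 by limma), against 1.43 with an adjusted p of 0.499 on the authors' scale. The groups did not overlap in this direction at 13.2% of all peaks.

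Pou3f2, a POU-domain factor of neural progenitors and cortex, had 1132 and 994 tags per 10 M in WT and 2844 and 1881 in CaPS over a peak of 23495 bases that includes its promoter. Its neighbour in function Pou3f3 lay under a peak annotated to 2900092D14Rik, with 319 and 280 in WT and 932 and 513 in CaPS. Sall1, a zinc-finger factor of kidney and neural progenitors, had 421 and 258 in WT and 1242 and 735 in CaPS, and Sall3, of the same family, 500 and 319 against 1202 and 821. Eya4, a transcriptional coactivator of sensory organs, had 305 and 185 in WT and 908 and 447 in CaPS. All of these CaPS values exceeded both WT values of the same peak.

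Other peaks in this set were weaker. Mecom, a zinc-finger factor of blood stem cells, had 91.4 and 61.2 tags per 10 M in WT and 248 and 133 in CaPS. Socs2, an inhibitor of cytokine signalling, had 98.7 and 142 against 333 and 233, and Skida1 had 130 and 55.5 against 190 and 238. On the X chromosome the non-coding genes Kis2 and Gm38438 had 90.0 and 51.6, and 71.1 and 45.9, in WT, against 269 and 121, and 145 and 139, in CaPS. The 30 X-chromosome peaks with a mean of at least 20 tags per 10 M had median log2 ratios of 0.47 in experiment 3 and -0.45 in experiment 4, and the 1939 autosomal ones 0.35 and -0.85. What part a difference between these chromosomes has in those values was not tested.

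**Figure D2:**
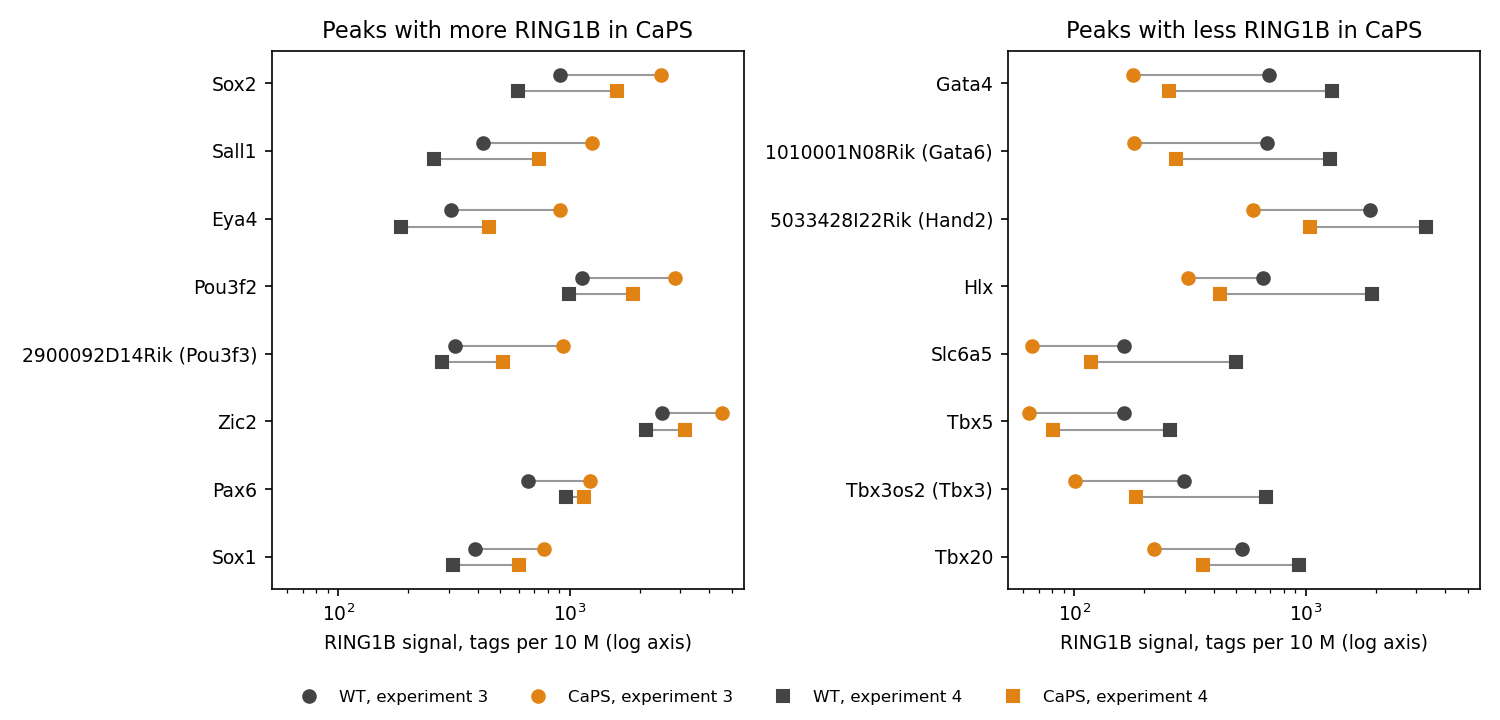
RING1B signal in tags per 10 M (horizontal log axis) at 16 peaks, with circles for experiment 3, squares for experiment 4, dark symbols for WT and orange for CaPS; a line joins the libraries of a pair. In the left panel each orange symbol lies to the right of the dark symbol of its pair, as for Sox2 with 2475 against 910, and in the right panel to its left, as for Gata4 with 179 against 691.

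The gene lists placed these peaks among their groups, each gene being represented by its strongest peak within 10 kb of its start. Over all 4196 genes with such a peak 4.29% were called lower and 3.98% higher at equal peak sums, but many listed genes had strong peaks. Among the 410 peaks with a mean of 100 to 1000 tags per 10 M the shares were 15.1% and 13.7%. For the 74 stronger peaks they were 5.41% lower and 22.97% higher. Of 42 measured neural progenitor genes 12 were called higher (28.6%) and 4 lower (9.52%), with a median log2 ratio of 0.25 at equal peak sums against -0.17 over all genes. By strength, the medians of experiments 3 and 4 were -0.01 and -0.07 for peaks of 100 to 1000 and 0.07 and 0.19 for stronger ones. What part peak strength has in the list values was not tested. Besides Sox2 and Pou3f2 the largest were Zic5 (1.69, from a weak peak), Sox1 (1.10), Sp8 (1.00) and Zic1 (0.91), all factors of the early neural plate or forebrain. The 4 called lower were Gsx1 (-1.06), En1 (-0.83), Olig1 (-0.77) and En2 (-0.67), genes of ventral forebrain, midbrain and oligodendrocyte progenitors.

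Among the other neural genes, Sox1 had 387 and 314 tags per 10 M in WT and 775 and 600 in CaPS, and Pax6, a master regulator of eye and forebrain, 659 and 958 against 1215 and 1150. Zic2, the strongest neural peak that was called, had 2487 and 2133 in WT and 4547 and 3124 in CaPS, with a log2 ratio of 0.85 at equal peak sums (SE 0.12). In these 3 peaks the groups did not overlap. Zic1 had 827 and 940 in WT and 1681 and 1346 in CaPS. Otx1, Neurog2 and Olig2 were not called: their log2 ratios in experiments 3 and 4 were 0.55 and -0.35 for Otx1, 0.85 and -0.23 for the proneural factor Neurog2, and 0.07 and -1.05 for the motor neuron and oligodendrocyte factor Olig2.

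Genes of postmitotic neurons were called in both directions. Of 31 measured, 5 were called lower (Lhx1, Lhx3, Pou4f2, Tlx1 and Fev) and 2 higher (Ebf3 and Bhlhe22). The ratio of Lhx1, a LIM homeobox gene of interneurons, was -1.16 at equal peak sums. The strongest peaks of the list, at Lmx1b and Uncx, had log2 ratios of 0.33 in experiment 3 for each and -0.77 and -0.57 in experiment 4, and were not called.

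Of 39 measured mesoderm genes 11 were called lower (28.2%) and 2 higher (5.13%), with a median of -0.31 at equal peak sums. Among the 11 were Tbx3, Tbx4, Tbx5, Tbx20, Foxc2, Foxf1, Foxf2, Pax1, Tcf21 and Wt1, from -1.38 for Tbx5 to -0.56 for Tbx4. Osr2 (0.48) and Eya1 (1.98, from a weak peak) were called higher, and Tbx18, the other of the strongest peaks of the list, was not called. Endoderm genes went in both directions. Of 14 measured, Gata4 and Cdx2 were called lower (14.3%) and 4 higher (28.6%), among them Foxa1 (0.55), Sox17 (0.46) and Prox1 (0.60). Nkx2-3 had 0.40 and -0.62 in the pairs.

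**Figure D3:**
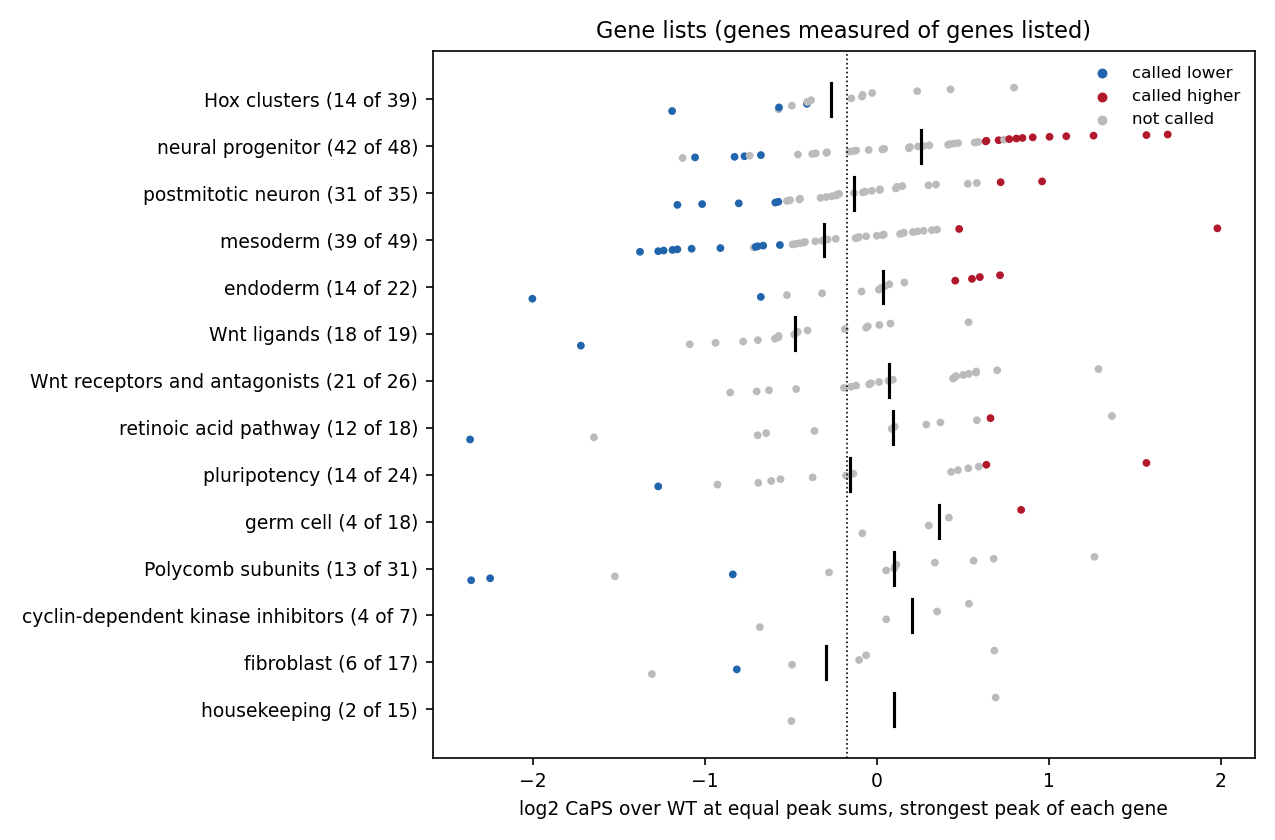
Log2 ratio of CaPS over WT at equal peak sums (horizontal axis) for the strongest peak of each measured gene of 14 lists, 1 point per gene with those called lower in blue and higher in red; black bars are list medians and the dotted line the median of all 4196 genes, -0.17. The list medians run from -0.48 for Wnt ligands to 0.36 for the 4 germ cell genes, with 0.25 for neural progenitor and -0.31 for mesoderm genes. The mesoderm list also holds the point farthest to the right, Eya1 (1.98, from a weak peak).

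Hox genes, which set position along the body axis, held 3 of the 6 strongest peaks from different loci, those at Hoxc11, Hoxa10 and Hoxd13. Hoxc11, over 107059 bases, had 6067 and 11803 tags per 10 M in WT and 5256 and 6422 in CaPS, and its ratio at equal peak sums, -0.41 (SE 0.10), was called lower. Its groups overlapped, and neither edgeR with TMM factors (adjusted p = 0.42) nor DESeq2 (adjusted p = 0.83) called it. Hoxa10 had 3792 and 6850 against 4540 and 4203, and Hoxd13 2264 and 3545 against 3415 and 2696, and neither was called. Of 14 measured Hox genes 3 were called lower (21.4%), Hoxb13, Hoxc11 and Hoxd3, and 0 higher by limma at equal peak sums. Among all peaks of 100 to 1000 tags per 10 M these shares were 15.1% and 13.7%, and so few genes do not set the list apart. A weak peak at Hoxb1, a hindbrain gene activated by retinoic acid, had 9.67 and 43.0 in WT and 13.0 and 15.2 in CaPS. The Rn45s region, which holds ribosomal repeat sequence present in many copies, had 2521 and 10765 in WT and 7455 and 7902 in CaPS. Its ratios were 1.56 and -0.45, and it was called higher at equal peak sums (0.69, SE 0.10) although its groups overlapped. Since reads from repeats cannot be placed with certainty, its value is uncertain.

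Genes of the retinoic acid pathway, the signal used for differentiation, showed no common direction. Of 12 measured, 1 was called higher and 1 lower (8.33% each, against 3.98% and 4.29% of all genes). Aldh1a2, which makes retinoic acid, was called higher with 403 and 530 tags per 10 M in WT and 862 and 514 in CaPS, so that the groups overlapped. Rarb, a receptor and target of the signal, was called lower from a peak of 7.26 and 10.5 in WT and 2.37 and 0 in CaPS, at or near the floor. The enzymes that break down retinoic acid were not called, with ratios of 0.55 and 0.35 for Cyp26a1 and 0.45 and 0.02 for Cyp26b1 in experiments 3 and 4. Meis1, a Hox cofactor, had 16.9 and 13.4 in WT and 17.4 and 32.0 in CaPS and was not called.

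Wnt genes encode a signal of axis patterning, and 2 lists held its ligands and its receptors and antagonists. Of 18 measured ligands 1 was called lower (5.56%), Wnt9a from a weak peak, and of 21 receptors and antagonists 0 were called by limma. Over all genes 4.29% were called lower and 3.98% higher, and counts this small do not set the Wnt lists apart. Wnt1 had ratios of 0.02 and -1.44, Wnt5a 0.32 and -0.44, Fzd5 1.00 and -0.37, and Lef1 0.35 and -0.49 in experiments 3 and 4. In each of the latter 3 the pairs pointed in opposite directions. Of 14 measured pluripotency genes Sox2 and Gbx2 were called higher (14.3%) and Tbx3 lower (7.14%), all of which stand on other lists too. Nr5a2 had 0.04 and -0.67. Of 4 measured germ cell genes Prdm1 was called higher, and Tfap2c and Pax5 were not called.

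Genes of Polycomb subunits bear on the complex itself. Cbx7 had 30.5 and 40.2 tags per 10 M in WT and 38.3 and 58.8 in CaPS and was not called. Cbx8 had 282 and 929 against 201 and 338 and was called lower at equal peak sums (-0.84, SE 0.19). The Cbx8 groups overlapped, and its adjusted p was 0.055 by edgeR with TMM factors and 0.13 by DESeq2. Cbx2 was called lower from 412 and 593 in WT and 13.6 and 618 in CaPS, with ratios of -4.82 and 0.06, so that the call came from 1 library; without it the ratio at equal peak sums was 0.50. In the independent pair of experiment 5 the Cbx2 peak had 48.4 tags per 10 M in WT and 156 in CaPS. Rybp, a subunit of other PRC1 forms, was also called lower from a peak with a mean of 7.02.

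The remaining lists served as checks. Of 4 measured cyclin-dependent kinase inhibitors 0 were called by limma, and Cdkn2a, a classical Polycomb target that stops the cell cycle, had 868 and 1473 in WT and 1231 and 929 in CaPS. Cdkn2c had ratios of 0.59 and -0.16. Of 17 fibroblast genes, listed because feeder cells could remain, 6 were measured, and Pdgfra was called lower (356 and 875 against 258 and 323) while Tbx15 was not called. The adjusted p of Pdgfra was 0.062 by edgeR with TMM factors and 0.14 by DESeq2. Of 15 housekeeping genes 2 had a peak, Gapdh and Pgk1, with values between 3.75 and 30.6.

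The peaks with the lowest unadjusted p on the authors' scale were weak ones. The 5 in the lower direction were annotated to H2-Q10, Ace, Pitx1, Lcn8 and Dctn3, with at most 1.05 tags per 10 M in CaPS of experiment 4, and their adjusted p lay between 0.430 and 0.459 by limma. The 5 in the higher direction were annotated to Gm715, Mir7655, Spats2l, Enc1 and Nr2f2, each with 0 in WT of experiment 4, and the lowest adjusted p was that of Gm715, 0.352. WT of experiment 4 had the highest floor, 5.74 tags per 10 M, for counting error only.

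Day-8 libraries of experiment 5, deposited in the time course and with 1 library per genotype, were not used for the calls and give the same measure a further time. They covered 4126 of the 5393 peaks (76.5%), with a median log2 ratio of 0.38, and by construction 50% of all peaks lay on each side of it. Of the 94 stronger peaks called lower, with a mean of at least 20 tags per 10 M, and a value there, 89 lay below that median (94.7%), and of 120 called higher 118 lay above it (98.3%). The 5 exceptions among the lower calls were Cbx2, Gbx2 (a weak peak beside the one counted among the pluripotency genes), Rasgef1a, Wnt9a and Mir196a-1, and the 2 among the higher calls were Ifrd2 and Gpc6, named after their values were seen. With weaker peaks included the counts were 108 of 124 (87.1%) and 154 of 166 (92.8%). Gata4 had 2564 tags per 10 M in WT and 339 in CaPS, the Hand2 peak 6500 and 1246, Sox2 550 and 6178, Pou3f2 468 and 5800, and Sall1 240 and 2547. The ratio for Sox2 was 3.49 on the log2 scale and for Gata4 -2.92, each larger than in experiments 3 and 4. Across the 484 peaks with a mean of at least 100, the ratio of experiment 5 correlated with the mean of experiments 3 and 4 at r = 0.87, a description across peaks and no test over samples.

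H3K27me3, the mark read by CBX7, lay on the same side of its own median as the RING1B call at most of these peaks. Its day-8 values, 1 library per genotype of experiment 5 by the labels and called pooled in the header, covered 3312 of the RING1B peaks (61.4%) with a median log2 ratio of -0.87, below which 50% of the peaks lay by construction and above which 50% lay. Of the stronger peaks called lower for RING1B 83 of 94 lay below that median (88.3%), and of those called higher 87 of 95 lay above it (91.6%). Gata4 had 2368 tags per 10 M in WT and 252 in CaPS, the Hand2 peak 6044 and 1150, Pou3f2 241 and 772, and Sox2 393 and 641. A place above that median need not mean more H3K27me3 in CaPS: Zic2 had 1338 and 1232 and Foxa1 1404 and 810, both called higher for RING1B. The correlation with the RING1B ratio over 482 peaks with a mean of at least 100 was r = 0.71. The WT library held 4.47 M tags and the CaPS library 32.9 M, and the part of that gap in the values was not tested.

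**Figure D4:**
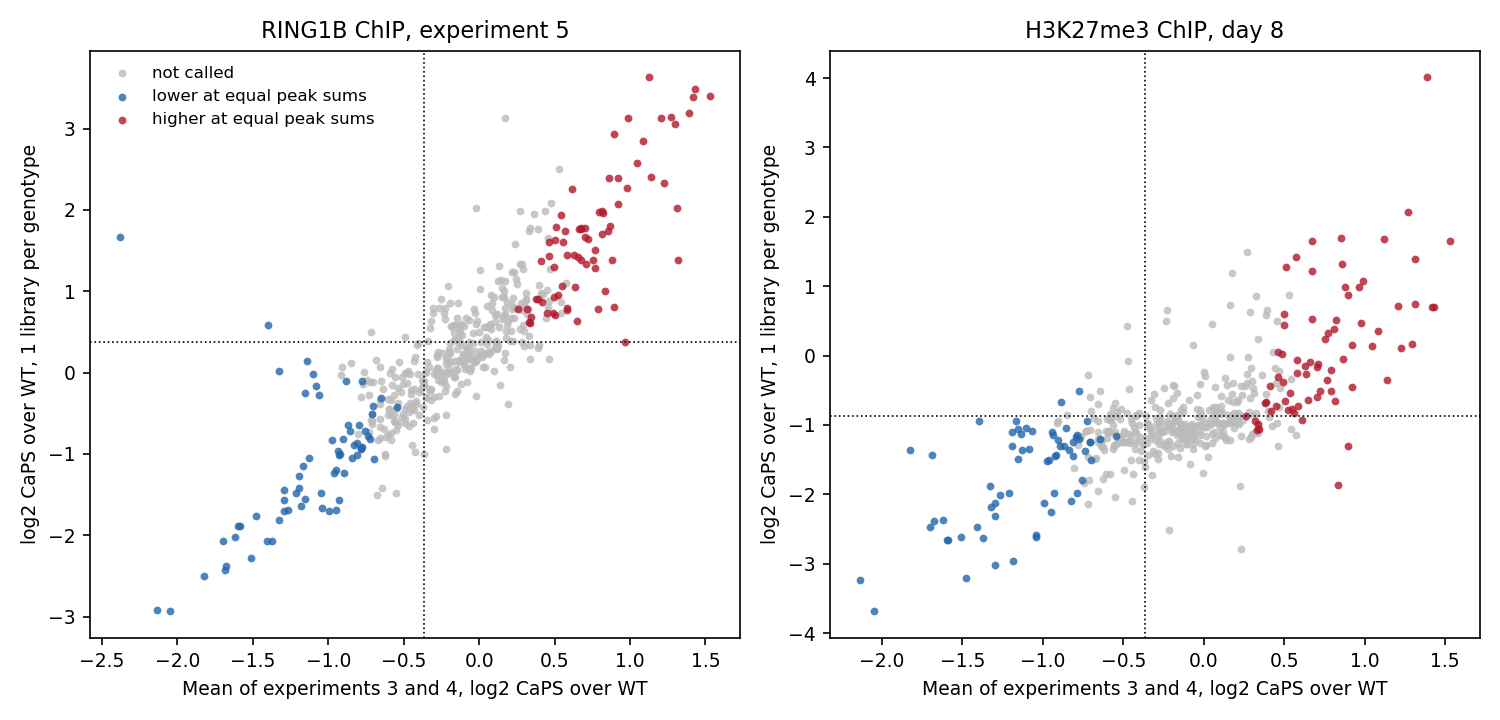
Log2 ratio of CaPS over WT in the day-8 libraries of experiment 5, RING1B on the left and H3K27me3 on the right (vertical axes), against the mean of experiments 3 and 4 (horizontal axes) for peaks with a mean of at least 100 tags per 10 M; dotted lines are medians over all peaks. Points called lower (blue) lie mainly at the lower left and points called higher (red) at the upper right, with r = 0.87 on the left and 0.71 on the right, and the blue point above the others on the left is the peak of Cbx2.

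How called peaks compared with others in width and overlap depended on their strength. Over all strengths the median width was 654 bases for the 243 lower calls and 2127 for the 192 higher ones, against 761 for all peaks, and the median of the mean signal was 7.52, 51.8 and 13.4 tags per 10 M. Of these lower calls 44.9% overlapped an ESC RING1B peak, against 70.3% of the higher calls and 64.1% of all peaks, and 51.4%, 52.6% and 61.4% overlapped a day-8 H3K27me3 peak. The lower calls stood on the other side among stronger peaks. Among peaks with a mean of at least 20 tags per 10 M, the median width was 6221 bases for those called lower, 4462 for those called higher and 1886 for the rest. They differed in strength too: the median of the mean signal was 215 tags per 10 M for the lower calls and 156 for the higher ones, against 41.2 for the rest. Of 421 peaks of at least 4 kb 14.7% were called lower and 14.7% higher. Peaks that overlapped an ESC RING1B peak made up 96.8% of the lower and 88.3% of the higher calls at this strength, against 91.7% of the rest. H3K27me3 peaks of day 8 overlapped 98.9% of the lower, 79.2% of the higher and 92.3% of the remaining peaks. Intergenic peaks, at all strengths, were called lower in 11.1% and higher in 2.15% of 790 cases, and promoter peaks in 2.37% and 2.60% of 1348.

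The time course table also gave the earlier stages. Sox2 had 597 and 737 tags per 10 M in WT ESC of experiments 3 and 5, 536 and 590 on day 6 and 1168 and 550 on day 8. In CaPS it had 1032 and 1540 in ESC, 2558 and 6087 on day 6 and 3109 and 6178 on day 8, so CaPS was above WT in the 6 pairs of this table. In the separate ESC table the Sox2 log2 ratio was 0.08, -1.58 and 1.11 in experiments 1, 2 and 3, with medians over these peaks of -0.84, -1.26 and -0.18, so the pair of experiment 2 lay below 0 and below its median. Gata4 had 3012 and 3001 in WT ESC, 1915 and 1696 on day 6 and 747 and 2564 on day 8, and in CaPS 2154 and 1976, 467 and 1078, and 239 and 339. The day-8 samples of experiment 3 are labelled alike in both tables, but the header total of the WT library was 10.3 M tags in the day-8 table and 11.8 M here, against 25.3 M in both for CaPS, and peak regions were set separately. The day-8 values of experiment 3 in this table are therefore not those given above. For Sox2 they were 1168 against 910 in WT and 3109 against 2475 in CaPS.

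**Figure D5:**
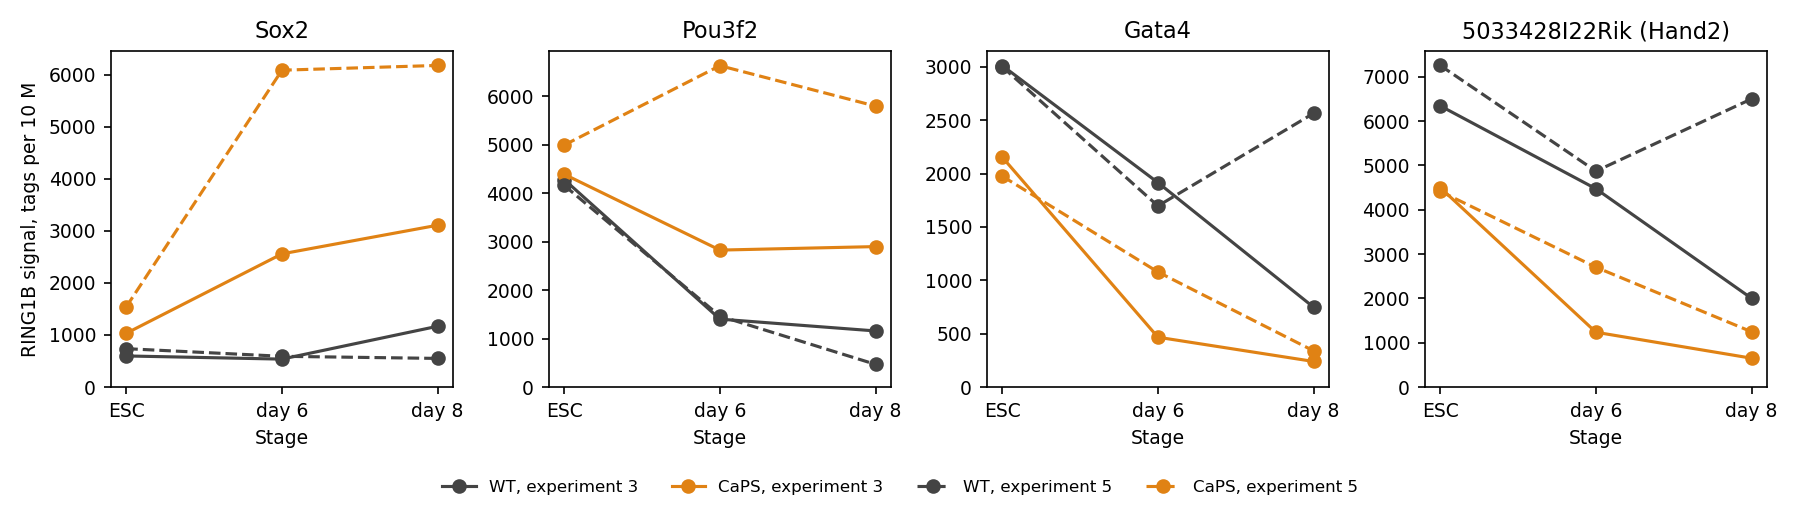
RING1B signal in tags per 10 M (vertical axes from 0) at the peaks of Sox2, Pou3f2, Gata4 and 5033428I22Rik (over Hand2) in ESC and on days 6 and 8, with dark lines for WT, orange for CaPS, solid for experiment 3 and dashed for experiment 5. On day 8 the orange points lie above the dark ones for Sox2 and Pou3f2 (3109 and 6178 against 1168 and 550 for Sox2) and below them for Gata4 and 5033428I22Rik (239 and 339 against 747 and 2564 for Gata4).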

How the data were processed

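RING1B was profiled by ChIP-seq in day-8 NPC with 2 libraries per genotype. The authors deposited a peak table in which, per the file headers, each value is a signal, tags in the peak scaled to 10000000 tags per library, on mm10. HOMER 4.10.4, Bowtie2 2.3.4.3, cutadapt 1.14 and SAMtools 1.9 are listed in the submitters' processing notes. Per the labels' protocols, the chromatin carried a Drosophila spike-in, and a correction of the totals for it is not described in the sources used here. The header command gives the tag directories of the 4 libraries different endings (merged, rmdup and, for 2, norm). Peaks were called over input, per the series design text, and all lie within 10 kb of a transcription start.

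From these values log2(value + 1) was tested with limma 3.58.1 (R 4.3.3, empirical Bayes with trend), with the experiment number as a block and Benjamini-Hochberg adjustment over 5393 peaks. The prior degrees of freedom were infinite. Pairing by number comes from the design text, which says that comparisons were made between experiments done together. Deviations of same-numbered libraries from their group means correlated at 0.25. Multiplying by the header totals returned whole read ends of 0.5 tag for 100% of values within 0.05, and these recovered tags were tested with edgeR 4.0.16 and DESeq2 1.42.0 as alternatives. The design foresaw normalised values, so limma remained the test. Equal peak sums had been listed as another scaling; describing and naming peaks from them, and their own alternatives, were chosen after the data were seen. The limma fit was tested on simulated data with known changes.

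Genes outside that choice were named by rule: the 5 lowest p-values in each direction where none passed, the 6 strongest peaks from different loci, the 2 strongest members of each of 14 gene lists, and Cbx7, Cbx2, Cbx8, Sox1, Pax6, Olig2, Neurog2, Gata4, Cdkn2a, Meis1, Hoxb1, Cyp26a1 and Rarb where measured. Pou3f2, Tbx20 and Zic1, and further list members called at equal sums, were added after their values were seen. The comparison, members and lists were chosen with earlier results of these data known. ESC, time course and H3K27me3 peaks were matched to day-8 peaks by an overlap of at least 1 base with bedtools 2.31.1, taking the largest overlap. Promoter sequences matched 3079 of 4196 gene names. Each table was scaled separately, so levels are compared within a table. Pooled RING1B columns were not used. A few genes covered by these rules are not reported here.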

Additional observations from a re-analysis of the deposited data

Results flagged for a closer look

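At 11 of the 61 named peaks with values in ESC, all 3 ESC pairs of experiments 1, 2 and 3 lay below 0 and both day-8 pairs above 0, on the authors' scale. The difference between the stages was not tested. The ESC values come from a separate table in which the median log2 ratio over these peaks was -0.84, -1.26 and -0.18 in the 3 pairs, so a sign there is read against those medians. Among all 3458 day-8 peaks with ESC values 242 had this pattern and 4 the opposite one, together 7.11%. Each gap given here is the mean log2 ratio of CaPS over WT on day 8 minus that in ESC. Among neural and sensory genes it was 2.15 for Eya4, 1.81 for Sox1, 1.81 for the peak of 2900092D14Rik over Pou3f3, 1.54 for Zic2, 1.68 for Zic1 and 1.47 for Pax6. Sox1, for example, had -1.23, -1.10 and -0.22 in ESC and 1.00 and 0.93 on day 8. Among the retinoic acid enzymes and Hox cofactors it was 1.23 for Cyp26a1, 1.44 for Cyp26b1 and 1.32 for Meis1. On the X chromosome it was 2.14 for Gm38438 and 3.75 for Gm715, whose WT library of experiment 4 was at 0.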

How the results depend on the processing

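On the authors' scale 0 peaks were called lower and 0 higher by the paired limma fit, with a pseudocount of 5, a mean of at least 20 tags per 10 M, without chromosomes 6, 8 and 14, or with edgeR on the library totals. Without the replicate block limma called 26 lower and 11 higher, with equal sums 243 and 192, with edgeR and TMM factors 134 and 247, with DESeq2 21 and 142 (3868 adjusted p-values were NA), and on tags without scaling 0 and 4. Leaving out 1 library gave 0 to 1665 lower and 1 to 241 higher; a lone library is then assumed to vary like the other group, and the fit has no block. The median log2 ratio of -0.37 became 0.66 on tags without scaling, -0.23 with equal sums, -0.02 with TMM factors and 0.03 with DESeq2. Leaving out 1 library, or the pair of experiment 3 or 4, gave -1.002 to 0.22.

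At equal peak sums the counts of 243 lower and 192 higher became 104 and 122 with a mean of at least 20, 484 and 235 with a pseudocount of 5, 242 and 127 with edgeR on the peak sums, 134 and 247 with TMM factors, 21 and 142 with DESeq2, 0 and 0 without the block (597 and 246 at an unadjusted p under 0.05), and 0 to 352 and 0 to 377 without 1 library. Of 45 named peaks called at equal sums, 44 kept call and direction with edgeR on the peak sums, 40 with TMM factors, 30 with DESeq2, 45 with a pseudocount of 5, 33 without WT of experiment 3 and 6 without WT of experiment 4. With TMM factors Ace, Pitx1, Cbx8, Hoxc11 and Pdgfra lost the call. With DESeq2 Cbx2, Cbx8, Hoxc11, Pdgfra and Skida1 lost it, and the other lost calls had no adjusted p. Cbx2 alone reversed, to 0.50 without CaPS of experiment 3, and ranged from -4.99 to 0.50 without 1 library.

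Named peaks whose log2 ratio on the authors' scale changed sign were mostly near 0 and not called. With TMM factors and with DESeq2, in this order, these were Cdkn2a (0.29, 0.34), Hoxa10 (0.15, 0.19), Lef1 (0.31, 0.35), Lmx1b (0.16, 0.20), Nkx2-3 (0.26, 0.30), Nr5a2 (0.058, 0.10), Pax5 (0.15, 0.19), Tbx15 (0.13, 0.18), Uncx (0.26, 0.30) and Wnt5a (0.32, 0.36). With equal sums they were Cdkn2a (0.055), Lef1 (0.068), Nkx2-3 (0.025), Uncx (0.018) and Wnt5a (0.079). On tags without scaling they were Cbx8 (0.10), Cdkn2a (1.00), Hoxa10 (0.86), Hoxb1 (0.51), Hoxc11 (0.54), Lef1 (1.01), Lmx1b (0.86), Nkx2-3 (0.97), Nr5a2 (0.76), Olig2 (0.59), Pax5 (0.86), Pdgfra (0.13), Pgk1 (0.33), Tbx15 (0.84), Uncx (0.96), Wnt1 (0.37) and Wnt5a (1.02). Without 1 library the ratio ranged on both sides of 0 for Cbx2 (-5.08 to 0.32), Cdkn2a (-0.46 to 0.30), Cdkn2c (-0.064 to 0.49), Fzd5 (-0.56 to 1.19), Hoxa10 (-0.65 to 0.20), Hoxb1 (-1.55 to 0.50), Hoxd13 (-0.22 to 0.42), Lef1 (-0.39 to 0.25), Lmx1b (-0.73 to 0.30), Nkx2-3 (-0.50 to 0.28), Nr5a2 (-0.79 to 0.16), Olig2 (-1.24 to 0.26), Otx1 (-0.18 to 0.38), Pax5 (-0.65 to 0.21), Pgk1 (-1.81 to 0.54), Rn45s (-0.49 to 1.61), Tbx15 (-0.58 to 0.11), Tbx18 (-0.063 to 0.43), Tfap2c (-0.34 to 0.90), Uncx (-0.63 to 0.39), Wnt1 (-1.69 to 0.28) and Wnt5a (-0.40 to 0.29). The causes were not tested. Depth limits weak peaks: 3 tags equal up to 5.74 tags per 10 M.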
